A study of Mus musculus with 28 samples.

Results

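The promoter contacts of the mouse major histocompatibility complex (MHC) were followed while Pre-B cells were turned into macrophages. A contact was taken as any listed pair of restriction fragments with at least 1 fragment midpoint in the 3.4 Mb of chromosome 17 that end at position 37000000 (mm10). Promoter Capture Hi-C (PCHi-C) ligates fragments that lie close together in the nucleus and enriches the pairs that hold a bait, which is a fragment carrying a gene promoter. The window held 1203 contacts of 138769 before induction. After induction it held 1445 of 137836 (1h), 1050 of 131598 (12h) and 930 of 144072 (48h). Over the 4 lists these were 2143 different contacts of 273644, made by 121 of the 18175 baits and by a few baits just outside the window. Of the 121 baits, 112 held the start of a protein-coding gene and 38 held the starts of several, whose contacts cannot be told apart.

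All samples were C10 cells, a single mouse Pre-B cell line that carries a C/EBPα-ER transgene, in which the transcription factor C/EBPα is fused to an estrogen receptor domain and is switched on by β-estradiol. The 0h cells carried the transgene and were not induced, and the other cells were induced for 1h, 12h or 48h with 100 nM β-estradiol, 10 nM IL-3 and CSF-1. RNA-seq had 3 libraries at each time, labelled only as biological replicates, so p-values measure the spread between these libraries. PCHi-C had 1 list at each time, which the authors made from 2 merged replicates, so differences between contact lists could not be tested and the intervals given for shares (Wilson, 95%) cover counting error only. Because all cells are 1 line driven by 1 transgene, the values describe that line.

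The MHC is a dense block of immune genes. Class I genes encode cell surface molecules that show peptides from inside the cell to CD8+ T cells, and need the transporter Tap1/Tap2, the chaperone tapasin (Tapbp) and the immunoproteasome subunits Psmb8 and Psmb9 to be loaded. Class II genes encode the molecules with which B cells, macrophages and dendritic cells show ingested peptides to CD4+ T cells, with H2-DM and H2-O as helpers of loading. Between the class I and class II genes lies the class III block, which holds complement and cytokine genes and many genes with household roles. In mouse a class I gene, H2-K1, lies on the far side of the class II genes, and its promoter was on no bait.

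The sequences before 4 of these genes are shown, 1 each for classical class I, non-classical class I, class II and loading, because shared promoter letters are a well known trait of the family. They are the 250 bases upstream of the RefSeq start site of H2-D1 (class I, chr17:35262844-35263093, plus strand), H2-T23 (a non-classical class I gene, chr17:36032702-36032951, minus strand), H2-Aa (class II, chr17:34287824-34288073, minus strand) and Tap1 (chr17:34187306-34187555, plus strand), in GRCm38.p6 (mm10), 5′ to 3′ on the gene's strand. Capitals mark matches, on either strand, to the Y box (GATTGG, the inverted CCAAT box), to paired IRF half-sites (GAAANNGAA), to paired C/EBP half-sites (TTGCNNAA) and to an NF-kB motif (GGGGANNCC).
H2-D1: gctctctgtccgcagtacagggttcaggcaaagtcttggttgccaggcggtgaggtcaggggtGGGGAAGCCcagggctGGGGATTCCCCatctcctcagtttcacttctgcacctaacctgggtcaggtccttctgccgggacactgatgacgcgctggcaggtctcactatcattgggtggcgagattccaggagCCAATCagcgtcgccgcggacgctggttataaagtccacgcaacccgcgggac
H2-T23: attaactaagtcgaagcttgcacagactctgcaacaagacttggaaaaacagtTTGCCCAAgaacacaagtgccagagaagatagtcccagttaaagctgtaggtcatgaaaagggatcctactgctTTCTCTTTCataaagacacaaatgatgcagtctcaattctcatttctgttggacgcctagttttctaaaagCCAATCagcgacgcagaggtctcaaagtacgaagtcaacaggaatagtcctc
H2-Aa: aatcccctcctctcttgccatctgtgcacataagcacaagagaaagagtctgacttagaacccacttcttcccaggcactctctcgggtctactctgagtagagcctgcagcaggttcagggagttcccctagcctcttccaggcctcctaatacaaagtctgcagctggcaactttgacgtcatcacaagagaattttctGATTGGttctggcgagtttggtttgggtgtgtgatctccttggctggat
Tap1: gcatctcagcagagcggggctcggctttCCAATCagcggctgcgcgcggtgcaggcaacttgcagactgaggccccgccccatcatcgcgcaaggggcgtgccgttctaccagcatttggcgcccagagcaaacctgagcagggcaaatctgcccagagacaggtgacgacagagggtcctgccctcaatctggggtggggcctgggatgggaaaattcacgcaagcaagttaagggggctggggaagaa
In H2-D1 the Y box match began 53 bases before the start site, in H2-T23 52 bases and in H2-Aa 49 bases before it. The window of Tap1 overlaps that of Psmb9 on the other strand, so the Y box match 222 bases before Tap1 is the same letters as the match 9 bases before Psmb9. H2-D1 held 3 NF-kB matches, of which a pair overlap because the motif reads on both strands. Of 51 listed genes of the window, 36 had a RefSeq promoter window of 300 bases (250 before and 50 after the start). The Y box letters were in 17 of 21 class I windows, 7 of 8 class II windows, 2 of 4 loading windows and 0 of 3 cytokine and complement windows, and in 16.1% of 32817 promoters in all. Paired C/EBP half-sites were in 3 class I windows (10.8% of all promoters), paired IRF half-sites in 2 (8.55%) and the NF-kB motif in 5 (6.25%). In class II windows the NF-kB motif was in 1 and the paired IRF and C/EBP half-sites in 0. A match describes the letters and does not show that a factor binds.

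The MHC window held more contacts at 1h and fewer at 12h and 48h than at 0h, while the rest of the list and the rest of chromosome 17 stayed near their 0h numbers. Relative to 0h the window held 120%, 87.3% and 77.3% after 1h, 12h and 48h. The rest of the list held 99.1%, 94.9% and 104%, and the rest of chromosome 17 104%, 97.7% and 101%. As a share of each list, the window took 0.867% before induction (0.819 to 0.917) and 1.05% after 1h (0.996 to 1.10). Its share was 0.798% after 12h (0.751 to 0.847) and 0.646% after 48h (0.605 to 0.688). These intervals cover counting error only and treat contacts of the same bait as independent. Whether the shares differ beyond the spread between replicates could not be tested.

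**Figure D1:**
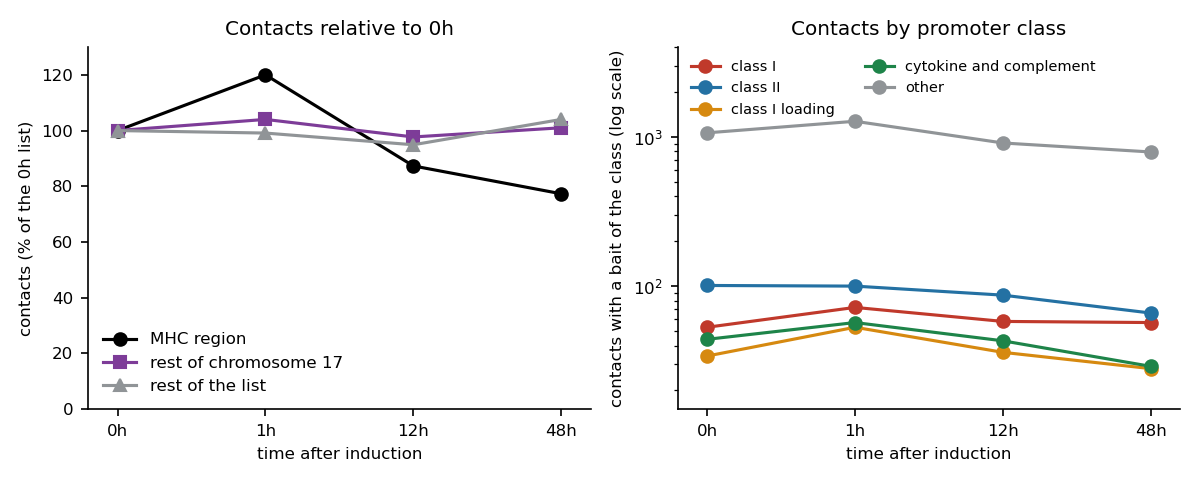
Left, contacts at each time as a percent of the 0h number for the MHC window, the rest of chromosome 17 and the rest of the list; right, contacts by promoter class (log axis). The MHC window goes from 120% at 1h to 77.3% at 48h, while the other lines stay between 94.9% and 104%.

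Nearly all of these contacts were within the window. Both fragments lay inside it for 1152, 1382, 971 and 840 contacts in order of time, and 12, 14, 6 and 8 joined it to another chromosome. Contacts with 1 fragment inside went the other way, with 51, 63, 79 and 90. The promoters of the MHC contacted each other often: 34.8% of its 0h contacts joined 2 baits (32.2 to 37.6), against 16.3% in the rest of the list, and 36.5% did so at 48h (33.4 to 39.6), against 14% there. The contacts were also shorter, with a median distance between fragment midpoints of 104 kb at 0h and 102 kb at 48h, against 191 kb and 177 kb in the rest of the list. The window holds 121 baits in 3.4 Mb, and neither trait was compared with regions of like bait density. Each band of distance held fewer contacts at 48h than at 0h, from 81.4% of the 0h number at 100 to 200 kb down to 57.8% beyond 500 kb, where 45 contacts were listed at 0h and 26 at 48h. In the rest of the list these bands held 113% and 82.8%.

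The window lost contacts at about the rate of the list and gained fewer. Of its 1203 contacts at 0h, 553 were not listed at 48h (46.0%, 43.2 to 48.8), against 44.1% over the whole list. Of its 930 contacts at 48h, 280 had not been listed at 0h (30.1%, 27.2 to 33.1), against 46.2% over the whole list. At 1h the picture was different, with 860 of the 0h contacts listed again (71.5%, 68.9 to 74.0), against 57.5% in the rest. At 12h 677 were listed again (56.3%) and at 48h 650 (54.0%, 51.2 to 56.8), where the rest of the list had 53.2% and 55.9%. Contacts listed at all 4 times numbered 465, which is 21.7% of the 2143 different contacts (17.6% in the rest). Those listed only at 1h were 384 (17.9%, against 11.7%), those shared by 0h and 1h alone 183 (8.54%, against 4.41%), and those listed only at 48h 138 (6.44%, against 14.1%).

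Each 0h contact comes with a CHiCAGO score, which rises with the strength of the evidence that a pair is ligated more than its distance predicts and was at least 5 in all listed contacts. Contacts listed at all 4 times had a median 0h score of 9.79 and a median distance of 82.8 kb, whereas those listed at 0h alone had 5.76 and 165 kb. The same order held in the rest of the list (9.11 and 5.80). Contacts that were not listed again therefore lay mostly near the score threshold. The later lists give whole numbers, taken here as read pairs. Over the 646 contacts listed at both 1h and 48h the median ratio of 48h to 1h was 0.757, with 79.7% lower at 48h, and in the rest of the list it was 0.882, with 60.8% lower. Between 12h and 48h the median ratio was 1.07 in the window and 1.18 in the rest. The depth of each merged library was not used, so a ratio for a single contact is best read against those medians.

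The median number of contacts per MHC bait was 9, 11, 8 and 6 in order of time, whereas baits of the rest had a median of 4 at every time. Of the 121 baits, 79 had fewer contacts at 48h than at 0h, 31 had more and 11 had equal numbers. The matching share over all baits was not computed, here or for the class counts of baits below. These counts are therefore not shown to be particular to the window. The mean per bait was 13.2 at 0h and 9.94 at 48h in the window, and 8.86 and 9.04 in the rest. Among the 88 baits with at least 5 contacts at 0h or at 48h, 18 had at most 0.5 times as many at 48h as at 0h (20.5%, 13.3 to 30.0). That share was close to the 17.7% of all 10487 such baits. Only 5 had at least double the number (5.68%, 2.45 to 12.6), against 19.8% of all. At the edges of the window, the first bait inside the low edge, Zfp414, had 2, 4, 4 and 2 contacts, and the last bait outside it, Myo1f, had 0, 0, 1 and 1. At the high edge H2-M5, inside, had 10, 16, 21 and 23, and Zfp57, just outside, had 3, 2, 11 and 15. Contacts made by outside baits alone numbered 6, 8, 19 and 32, of which Olfr95, an olfactory receptor gene, made 4, 2, 7 and 9.

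**Figure D2:**
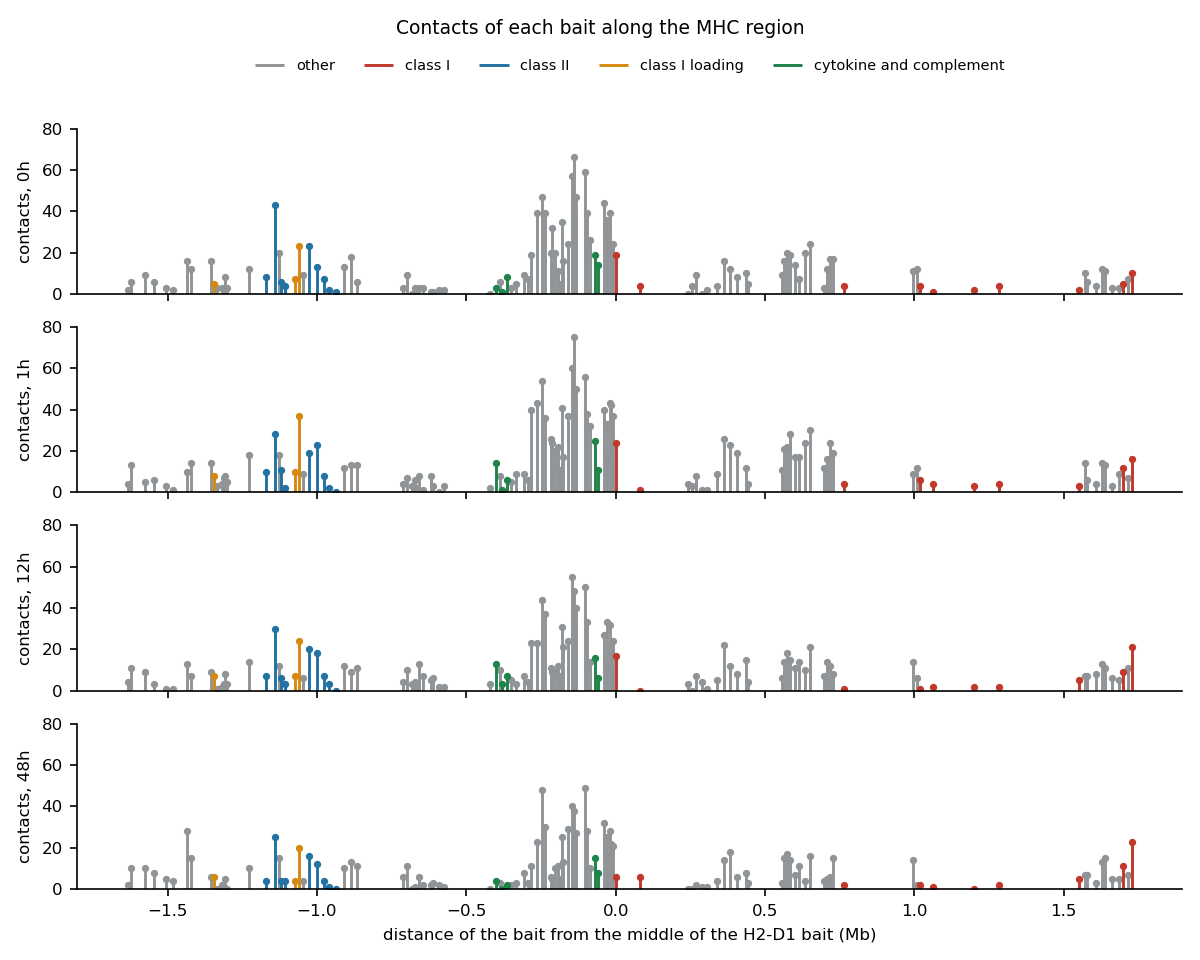
Contacts of each bait at 0h, 1h, 12h and 48h against its distance in Mb from the middle of the H2-D1 bait, coloured by promoter class. The tallest group lies just below H2-D1, in the class III block, and H2-M5, at the high edge, has 10 contacts at 0h and 23 at 48h.

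The class I promoters as a group had similar numbers of contacts at 0h and 48h, and this rested on a pair of baits. Their 10 baits made 53, 72, 58 and 57 contacts at the 4 times. Of the 53, 26 were listed again at 48h (49.1%, 36.1 to 62.1), an interval that holds the 54.0% of the window and the 55.9% of the rest of the list, and 31 at 48h were new. The pair at the high edge, H2-M5 and Znrd1 (which also holds the class I pseudogene H2-M6-ps), had the largest increases. Without them, an alternative chosen after the values were seen, class I baits made 38, 48, 29 and 24 contacts.

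H2-D1 encodes a classical class I heavy chain and had the most contacts of the class I baits at 0h and 1h. Its bait (chr17:35258280-35268762), which holds the promoter shown above, had 19, 24, 17 and 6 contacts. Of these, 15, 17, 13 and 4 lay at lower coordinates, many of them in the class III block, and 9, 14, 9 and 2 joined another bait. The Prrc2a bait, which lies 102 kb away and belongs to a large gene of the class III block, was listed at all 4 times, with a score of 9.35 at 0h and 40, 24 and 24 read pairs at 1h, 12h and 48h. The neighbouring bait at chr17:35252343-35257391 had a score of 10.93 and 460, 347 and 252 read pairs, a ratio of 48h to 1h of 0.548. Other class III partners dropped out of the list stepwise. Csnk2b/Gpank1 (score 6.47, then 36 read pairs at 1h) and Csnk2b/Ly6g5b (7.51, then 25) were listed to 1h, while Apom/Bag6 (5.52, then 25 and 17) and Aif1 (6.62, then 23 and 14) were listed to 12h. The partner with the highest score on chromosome 17 was farther off, a fragment 1290 kb away between Vps52 and H2-K1 (22.18, then not listed, 7 and 5 read pairs). Class I genes are near-identical copies, so reads of such far fragments, and of 2 fragments on chromosome 14 with scores of 15.31 and 22.43, may be uncertain in place, which was not tested.

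The other classical and non-classical class I baits had few contacts. H2-Q2, of the Qa family, had 4, 1, 0 and 6 contacts. The fragment 9.54 kb away scored 6.23 at 0h and came back at 48h with 103 read pairs. H2-T23, which encodes the Qa-1 molecule read by natural killer cells, had 4, 4, 1 and 2, of which the fragment at chr17:35994712-35999061 was listed at all 4 times (6.4 at 0h, then 29, 20 and 20 read pairs). The H2-M10 family and H2-M11 are known from sensory neurons of the vomeronasal organ. H2-M10.2 had 4, 6, 1 and 2 contacts, H2-M10.1 1, 4, 2 and 1, H2-M10.4 2, 3, 2 and 0, H2-M11 4, 4, 2 and 2, and H2-M10.6 2, 3, 5 and 5. Only the last of these had more at 48h than at 0h.

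H2-M5 had 10, 16, 21 and 23 contacts and Znrd1, whose gene encodes a subunit of RNA polymerase I, had 5, 12, 9 and 11. H2-M5 contacted the Trim genes beside it, which encode a family of ubiquitin ligases. Its contact with Trim40 scored 6.97 and had 31, 34 and 34 read pairs, that with Trim31 scored 5.39 and had 37, 30 and 42, and that with the fragment at chr17:36912910-36919801 scored 6.18 and had 36, 43 and 55. The ratio of 48h to 1h of that fragment was 1.53, above the 0.757 of the window. H2-M5 and Znrd1 were listed with each other from 1h on, with 75, 54 and 91 read pairs. H2-M5 RNA was listed at 0 in all 12 libraries.

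The class II promoters had fewer contacts at 48h and gained few. Their 9 baits made 101, 100, 87 and 66 contacts. Of the 101, 57 were listed again at 48h (56.4%, 46.7 to 65.7), and 9 contacts at 48h were new. At 48h 8 of the 9 baits had fewer contacts than at 0h and 1, H2-DMb1, had the same number. Class II baits contacted each other in 6, 3, 7 and 4 pairs and loading baits in 5, 7, 6 and 3. No contact joined a class I bait with a class II bait at any time. The nearest such baits, H2-Eb2 (ending at 34326646) and H2-D1 (starting at 35258280), lie over 500 kb apart. Of the window's 0h contacts within chromosome 17, 3.78% spanned more than 500 kb, so few contacts between these classes could be listed at that distance.

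H2-Ab1 encodes the beta chain of the classical class II molecule I-A. Its bait had 13, 23, 18 and 12 contacts, and 10 of them were listed at all 4 times. All 13 contacts at 0h lay at higher coordinates, toward the butyrophilin-like genes Btnl2 and Btnl1, whereas 7 of the 23 at 1h lay on the other side, along with 2 at 12h and 1 at 48h. The fragment at chr17:34366239-34376453, which holds Btnl2 exons, was the non-bait partner on chromosome 17 with the highest 0h score for H2-Ab1 (15.67, then 37, 20 and 18 read pairs), H2-Aa (8.62, then 40, 28 and 27), H2-Eb1 (8.55, then 31, not listed and 28) and H2-Eb2 (5.55, then not listed). These 4 genes, the alpha and beta chains of I-A and the beta chains of I-E and its relative, thus shared that partner, at 107, 82.8, 66.7 and 45.3 kb. It was not theirs alone. At 0h the fragment was also listed with Psmb8/Tap2 (10.38), Brd2/H2-DMa (9.58), H2-Ob (5.74) and H2-DMb1 (5.3), for which other non-bait fragments scored higher. In all, H2-Aa had 7, 8, 7 and 4 contacts, H2-Eb1 2, 2, 3 and 1, and H2-Eb2 1, 0, 0 and 0.

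Another fragment was shared by several promoters of the class II helpers. H2-DMa encodes the alpha chain of H2-DM, the catalyst of peptide exchange, and its bait also holds the start of Brd2, a bromodomain reader of acetylated histones. That bait had the most contacts of the class II group, with 43, 28, 30 and 25. H2-Ob (23, 19, 20 and 16) and H2-Oa (8, 10, 7 and 4) encode the chains of H2-O, an inhibitor of H2-DM, and H2-DMb2 (6, 11, 6 and 4) and H2-DMb1 (4, 2, 3 and 4) the beta chains of H2-DM. The fragment at chr17:34165147-34173144, between H2-DMb1 and Psmb9 and without an annotated exon, was the best scored non-bait partner on chromosome 17 of Brd2/H2-DMa (18.8, then 109, 77 and 106 read pairs), H2-Oa (9.61, then 16, 15 and 15) and H2-DMb2 (8.65, then 58, 41 and 41). That fragment was not theirs alone, as it was also listed at all 4 times with H2-Ob (10.15 at 0h) and with Psmb8/Tap2 (6.67). With H2-Ab1 it was listed at 1h only. Brd2/H2-DMa and H2-Ob contacted each other at all 4 times (14.43, then 44, 23 and 23).

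**Figure D3:**
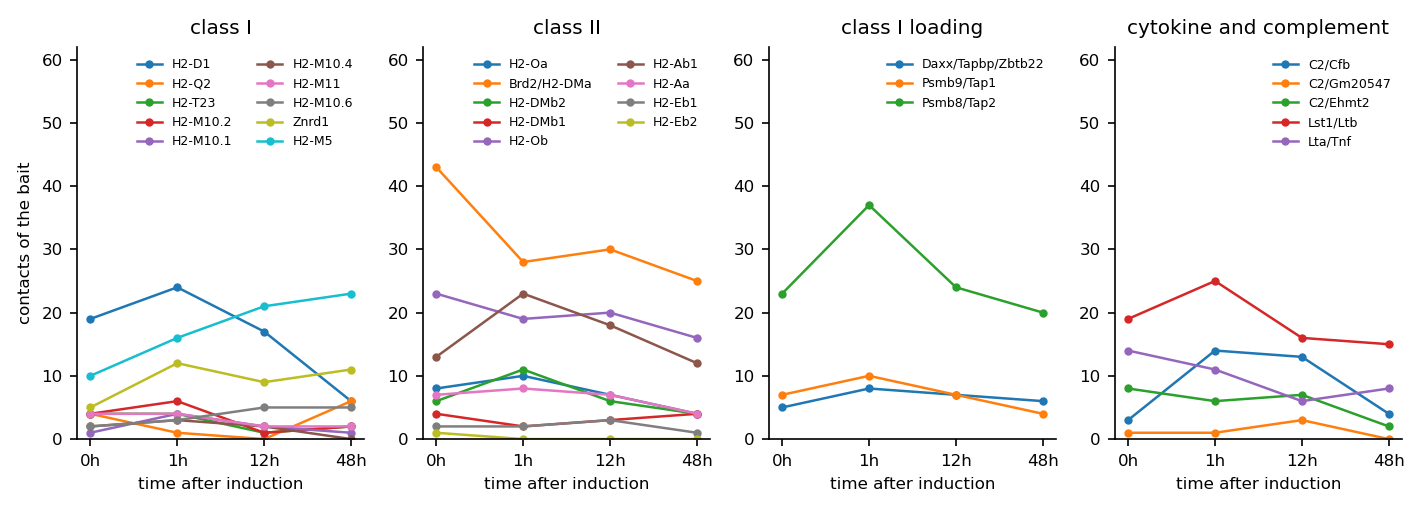
Contacts of each listed bait at 0h, 1h, 12h and 48h, by class. H2-D1 has 19 contacts at 0h and 6 at 48h, Brd2/H2-DMa 43 and 25, and H2-M5 10 and 23.

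As a group, the promoters of class I loading genes had the most contacts at 1h and the fewest at 48h, although the Tapbp bait had its fewest at 0h. Their 3 baits made 34, 53, 36 and 28 contacts, of which 19 of the 34 were listed again at 48h (55.9%, 39.5 to 71.1). The bait of Psmb8 and Tap2 had 23, 37, 24 and 20, that of Psmb9 and Tap1 7, 10, 7 and 4, and that of Tapbp, Daxx and Zbtb22 5, 8, 7 and 6. The first pair of baits contacted each other at all 4 times, 14.9 kb apart, with a score of 10.71 and 273, 193 and 217 read pairs. The Psmb9/Tap1 bait was also listed with Brd2/H2-DMa at all 4 times, with a score of 8.09 and 67, 38 and 22 read pairs, a ratio of 48h to 1h of 0.328. The ratio of the Psmb8/Tap2 pair was 0.795, close to the median of the window.

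The cytokine and complement promoters had 44, 57, 43 and 29 contacts over 5 baits, and 23 of the 44 were listed again at 48h (52.3%, 37.9 to 66.2). The bait of Tnf, the gene of the inflammatory cytokine, and Lta, that of lymphotoxin alpha, had 14, 11, 6 and 8. That of Ltb and Lst1, for lymphotoxin beta and a myeloid transmembrane protein, had 19, 25, 16 and 15. Both were listed at all 4 times with the bait of Nfkbil1, with scores of 33.79 for Lta/Tnf and 32.12 for Lst1/Ltb, and with 145 and 166 read pairs at 48h. Of the baits of the complement genes C2 and Cfb, C2/Cfb had 3, 14, 13 and 4 contacts, C2/Ehmt2 8, 6, 7 and 2, and C2/Gm20547 1, 1, 3 and 0. The 14 contacts of C2/Cfb at 1h thus stand between 3 and 4 at 0h and 48h.

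The other 94 baits made 1064, 1272, 910 and 792 contacts, and 578 of the 1064 were listed again at 48h (54.3%, 51.3 to 57.3). Of these baits 60 had fewer contacts at 48h, 25 more and 9 equal numbers. The most contacts were in the class III block. Csnk2b/Gpank1, the bait of the casein kinase 2 regulatory subunit and of Gpank1, had 66, 75, 48 and 38 and was the bait with the largest decrease. Prrc2a had 59, 56, 50 and 49, and Csnk2b/Ly6g5b 57, 60, 55 and 40. Vars/Vwa7, which holds the valyl-tRNA synthetase promoter, had 47, 54, 44 and 48, with 39 of its 58 different contacts listed at all 4 times. Clic1, which encodes a chloride intracellular channel protein, went from 32 and 24 contacts to 9 and 5, of which 3 were listed at all 4 times. Apom/Bag6 had 47, 50, 40 and 27.

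A few baits went the other way. Ndufa7/Rps28, which holds promoters of a respiratory complex I subunit and of a ribosomal protein, had 16, 10, 13 and 28, all on its lower side. Mucl3 had 12, 23, 12 and 18, BC051142 6, 13, 11 and 11, and Abhd16a/Ly6g5c 24, 37, 24 and 29. The fragments without a bait that contacted the most baits also lay between Lsm2 and H2-D1. The fragment at chr17:35032228-35037473, over exons of the mismatch repair relative Msh5, was listed with 21 baits in all and with 18, 15, 8 and 11 at the 4 times. A fragment over Vwa7 exons (chr17:35021923-35024220) met 14, 20, 14 and 14 baits, 13 of them at every time. The fragment next to the H2-D1 bait (chr17:35257392-35258279) met 14, 15, 6 and 4, so it had the steepest drop of the 5 leading fragments.

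The RNA of the same cells was set beside the contacts. Of the Pre-B markers used for the check, Pax5, the B cell identity factor, stood at 17.02, 17.5 and 16.85 TPM before induction and at 2.83, 3.85 and 4.50 after 48h. Vpreb1, a part of the surrogate light chain of the pre-B cell receptor, stood at 44.7, 47.4 and 38.3 and then at 0.84, 0.82 and 1.41. Both fell in the limma fit, by 2.19 and 5.31 on the log2 scale. The macrophage markers (7 genes, among them Itgam and Csf1r) summed to 3.36 to 4.61 and then 611 to 749, and the 6 tested rose. T cell markers summed to at most 0.33, dendritic cell markers to at most 0.32, and erythroid markers were listed at 0. These libraries are bulk samples, so fewer cells of a type and less RNA per cell cannot be told apart.

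Of 314 annotated genes in the window, 150 passed the filter on low values (mean TPM of at least 0.1) and were tested with limma on log2(TPM + 0.1). Genes were called at an adjusted p (Benjamini-Hochberg) under 0.05 with a log2 change beyond 1. At 1h 14 rose and 0 fell, beside 16.7% rising and 1.08% falling of 16415 genes tested. At 12h 23 rose and 4 fell, beside 17.7% and 5.75%. At 48h 38 rose and 34 fell, beside 13.5% and 23.1%. The median log2 change of all genes was 0.59, 0.34 and -0.18 at the 3 times, and that of the window 0.50, 0.33 and -0.03. After median-of-ratios scaling between libraries, where the median of all genes was 0.02, 0.07 and 0.07, the window had 2 higher and 4 lower at 1h, 14 and 8 at 12h, and 46 and 25 at 48h, so its direction at 1h rests on the scaling.

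Class I RNA rose late and broadly. Of 31 class I genes, 16 were tested, and 0, 2 and 14 of them rose at 1h, 12h and 48h and 0 fell, with a median log2 change of 2.22 at 48h. H2-D1 stood at 40.6, 41.2 and 40.0 TPM before induction and at 54.2, 43.0 and 56.3 after 1h. It reached 63.8, 66.6 and 106.9 TPM after 12h and 163, 192 and 337 after 48h. Its 48h libraries lay above all others, with a log2 change of 2.43 ± 0.27 (SE, limma adjusted p = 2.1e-05), while its bait went from 19 contacts to 6. H2-K1, the other classical class I gene, stood at 52.1, 39.2 and 58.4 at 0h and 140.1, 166 and 279 at 48h (1.92 ± 0.27, limma adjusted p = 0.00011), and overlapped 0h at 1h and 12h. H2-T23 stood at 3.39, 3.68 and 3.18 and then 13.0, 15.9 and 22.1 at 48h (2.25 ± 0.23, limma adjusted p = 9.7e-06). H2-T24, a neighbour of H2-T23, stood at 0.15, 0.41 and 0.09 at 0h, 1.32, 1.70 and 2.05 at 12h, and 30.7, 37.5 and 34.0 at 48h, with a log2 change of 6.88 ± 0.54. H2-Q2 rose by 1.67 on the log2 scale. Reads of class I genes may be split among near-identical copies, so single values are uncertain.

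Class II RNA was low at all times. The 10 genes summed to 5.14 to 5.72 TPM at 0h and 13.7 to 19.4 at 48h, when 6 of the 7 tested rose. H2-DMa stood at 0.61, 0.80 and 0.87 at 0h, 1.30, 1.88 and 1.60 at 1h, 2.61, 2.00 and 3.29 at 12h, and 6.33, 3.17 and 6.07 at 48h (2.57 ± 0.30, limma adjusted p = 2.6e-05). H2-DMb2 rose by 1.97 and H2-DMb1 by 1.18. H2-Ab1 stood at 0.48, 0.34 and 0.26 at 0h and at 1.36 ± 0.339 (SD, n = 3) at 48h (log2 change 1.67 ± 0.42, limma adjusted p = 0.007). H2-Aa, its partner chain, was listed at 0 in 9 of 12 libraries and at most 0.14 in the others, and Ciita, the gene of the class II master regulator, was at most 0.16. The calls of H2-Eb1 (1.19) and H2-Ob (1.11) were lost in some alternatives, and with a pseudocount of 1 those of H2-DMb1 and H2-Ab1 were lost too. H2-Oa changed by -0.55 ± 0.53 and was not called.

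**Figure D4:**
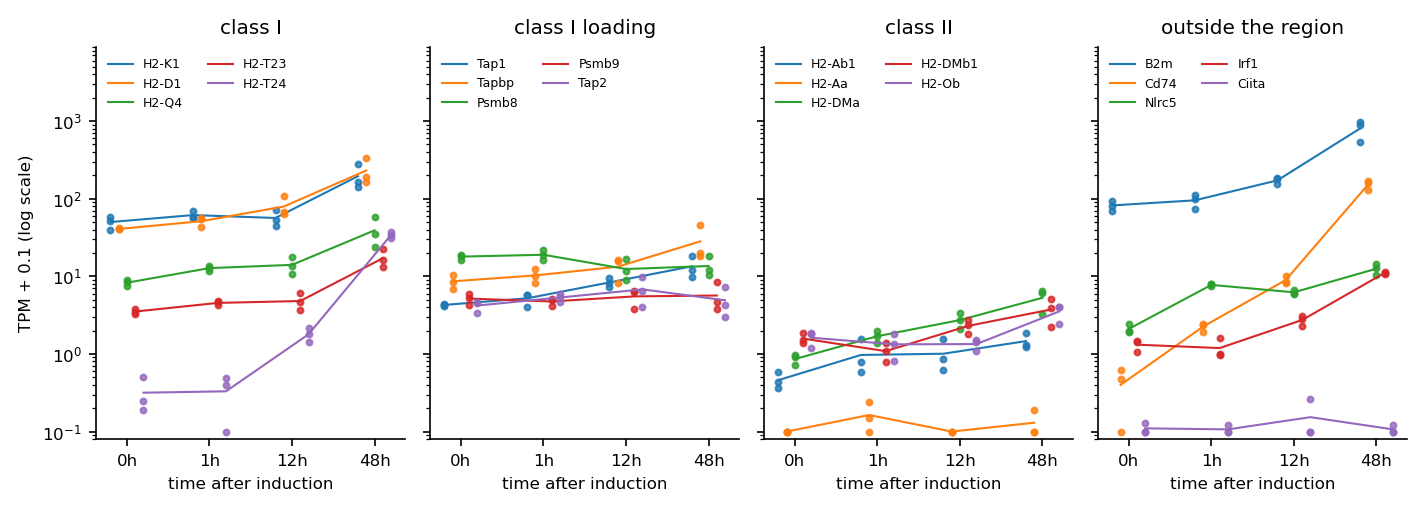
TPM plus 0.1 (log axis) of class I, loading and class II genes and of genes outside the window at each time, with points for libraries and lines for means. The 48h libraries of H2-D1 lie between 163 and 337 TPM, above all earlier libraries, while H2-Ab1 stays under 2.

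Among the loading genes, Tap1 stood at 4.32, 4.23 and 4 TPM at 0h and 9.68, 12.1 and 18.3 at 48h, a rise of 1.60 ± 0.24 (limma adjusted p = 0.00019). Tapbp rose by 1.60 ± 0.37, whereas Psmb8 (-0.44), Psmb9 (0.06) and Tap2 (0.14) were not called, although Psmb9 shares its bait, and the promoter letters shown above, with Tap1. Of the cytokine and complement genes 3 rose at 12h, Tnf by 1.15, Lta by 1.61 and Ltb by 1.83. At 48h the complement genes C4b (4.45) and Cfb (1.58) were called, the latter not in all alternatives, and Tnf (0.44), Lta (-0.95), Ltb (0.89) and C2 (-1.53) were not. C4b has a near copy, C4a, so its reads may be uncertain. Median-of-ratios scaling ended the call of Tnf at 12h (0.82) and made one for Ltb at 48h (1.28).

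The partners of this pathway encoded outside the window gave 5 higher and 1 lower of 16 tested at 48h. Cd74, the invariant chain that guides class II molecules, stood at 0, 0.52 and 0.38 TPM at 0h, 2.28, 1.84 and 2.33 at 1h, a mean of 8.84 at 12h, and 131, 159 and 168 at 48h. B2m, the light chain of class I molecules, rose by 3.25 at 48h, and Nlrc5, the class I transactivator, rose by 1.89 at 1h and 2.57 at 48h. Irf1 rose by 3.09 and Ctss, a protease of class II loading, by 2.28. Erap1, which trims class I peptides, fell by 1.18 on the log2 scale, and was not called after median-of-ratios scaling.

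Of the other protein-coding genes that averaged at least 1 TPM and did not overlap between 0h and 48h, Ier3 (4.75), Daxx (3.59) and Lst1 (3.53) had the largest rises at 48h and the kinesin Kifc1 (-4.55), Lsm2 (-3.92) and Tcf19 (-3.59) the largest falls. Aif1, a macrophage gene of lower average level that was named after its values were seen, rose by 4.66, and its bait had 26, 32, 14 and 10 contacts. Daxx encodes a histone H3.3 chaperone and Lsm2 a part of the RNA splicing and decay machinery. Among the genes of the class III baits with the most contacts, Vars fell from a mean of 24.5 to 2.07 TPM, a log2 change of -3.50, while its shared bait Vars/Vwa7 had 47 contacts at 0h and 48 at 48h. Its other bait had 39, 43, 23 and 23, and both together went from 86 to 71. Clic1 went from a mean of 19 to 25 TPM and was not called (0.40), while its bait went from 32 contacts to 5. Znrd1 RNA fell by 1.90 on the log2 scale, while its bait went from 5 contacts to 11.

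Over the 103 tested protein-coding genes with a bait in the window, contacts were fewer at 48h for most genes, whichever way the RNA went. Fewer contacts were found for 18 of 23 genes whose RNA rose (78.3%), 23 of 31 whose RNA fell (74.2%) and 34 of 49 that were not called (69.4%), with a median change of -3 contacts in each of these sets. Of all 103 genes, 75 had fewer contacts (72.8%), and each set lay near that share. The matching share over all genes of the series was not computed. Genes that share a bait share its counts, so these are not independent, and no test was made.

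**Figure D5:**
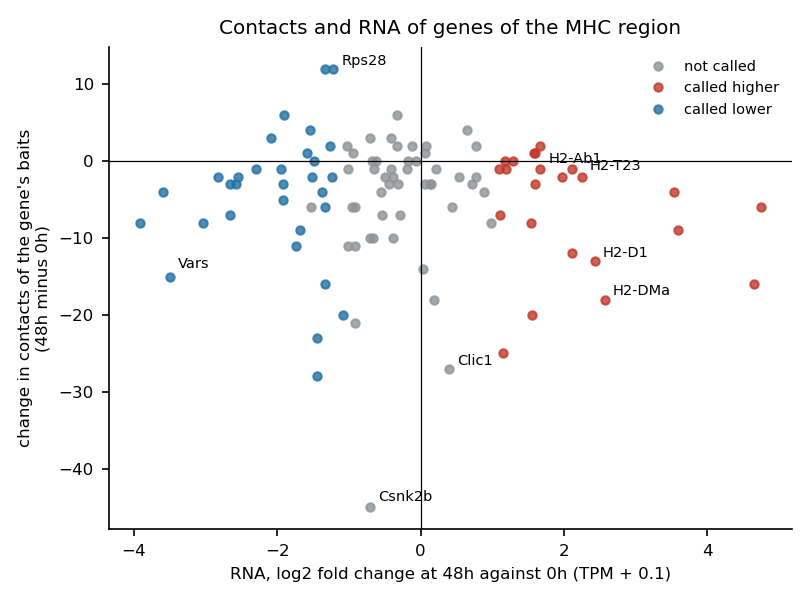
Change in contacts from 0h to 48h (vertical) against the log2 fold change of RNA at 48h (horizontal) for the 103 tested protein-coding genes with a bait, 1 point a gene. Points lie mostly below the line of no change in contacts on both sides, 75 of 103 in all.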

How the data were processed

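The authors trimmed the RNA-seq reads (Trim Galore 0.6.2), mapped them to mm10 (HISAT2 2.1.0 and RSEM are named in the submitters' notes) and deposited TPM per gene, which keep no record of depth. The 12 libraries (3 at each of 4 times) were fitted in 1 limma model on log2(TPM + 0.1) with a mean-variance trend (limma 3.58.1, R 4.3.3), with p-values adjusted by Benjamini-Hochberg over the 16415 genes that averaged 0.1 TPM or more. In a simulation of 48h against 0h over 16415 genes, 200 genes were changed by 2 on the log2 scale. Of these, 84.5% were recovered, with 13 false calls. The changed genes were drawn from those with a 0h mean of at least 1 TPM, so recovery of lower genes was not measured.

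For PCHi-C the authors digested chromatin with HindIII, merged 2 replicates, called contacts with CHiCAGO at a score of 5 or more, and deposited the 0h list with this score. In the later lists the deposited values are counts (whole numbers with no unit named), taken as read pairs, with a lowest value of 2. Scores and counts are never compared. A bait is any fragment the lists give as one, named by the GENCODE M21 starts that lie inside it. Starts within 1 kb of the fragment were used only as an alternative. Distances are between midpoints. Tables were made with Python 3.11.15, pandas 2.3.3, numpy 2.4.6 and scipy 1.17.1, and figures with matplotlib 3.10.9. Hi-C was not used here.

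Named genes are all listed class I, class II, loading, cytokine and complement genes with a bait, of the other baits the 4 with the most contacts and the 4 with the largest increase and decrease, and of the other genes the 3 with the largest RNA increase and decrease at 48h (called, averaging at least 1 TPM, 0h and 48h libraries not overlapping). Genes named outside this rule (the other class I genes, the pathway genes outside the window and the genes of baits with many contacts) come from the lists or were named after their values were seen. The members and the lists were chosen with earlier results of these data known. Alternatives varied the score, window, distance, pseudocount, filter, scaling, thresholds, libraries and replicate block. The values of 1 marker gene, and sums that hold it, are not reported here.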

Additional observations from a re-analysis of the deposited data

How the results depend on the processing

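Contact counts rest on 1 merged list per time, so leaving out a replicate was not possible for them, and the depth of the lists is unknown. With a 0h score of at least 10, 273 contacts were left at 0h, and 93.8%, 90.5% and 91.2% of them were listed again at 1h, 12h and 48h. Counting a contact as listed again when the same bait met a fragment within 10 kb of the first gave 87.9%, 79.3% and 75.1%. Distances between nearest ends gave medians of 97.0 kb at 0h and 98.7 kb at 1h. Without the Znrd1 and H2-M5 baits (added after the values were seen), class I contacts were 29 at 12h and 24 at 48h.

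Genes of the window with higher RNA at 1h numbered 1 with a pseudocount of 1, 8 with a mean TPM of at least 1, 2 with median-of-ratios scaling, 22 without a fold threshold and 3 beyond a log2 change of 2. Leaving out 1 library gave 4 (without 1h replicate 1) to 15. Lower at 1h were 4 with that scaling and 1 without a fold threshold. Higher at 12h were 11 with a pseudocount of 1, 14 with that scaling and 7 beyond 2, and 17 to 27 when 1 library was left out. Lower at 12h were 8 with that scaling, 7 without a fold threshold and 1 beyond 2, and 4 to 8 (8 without 12h replicate 3) when 1 library was left out. At 48h 22 were higher with a pseudocount of 1, 24 with a mean TPM of at least 1 and 20 beyond 2 (31 to 38 when 1 library was left out), and 14 were lower beyond 2 (28 to 40).

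The log2 change of Tap2 at 48h ranged from -0.20 to 0.44 and that of Psmb9 from -0.28 to 0.31 when 1 library was left out, and neither was called. Of the 25 single genes followed, 20 values lost their call and 5 gained one over all alternatives. In 4 more the sign of the log2 change was reversed, and 439 stayed the same. The main fit did not pair libraries by replicate number: 7 of 18 same-numbered pairs had a correlation of deviations over 0.1 (-0.0123 to 0.257). The replicate 3 libraries did deviate together, with correlations of 0.0698 to 0.257 between times. Their correlations with libraries of replicates 1 and 2 were all negative, down to -0.181. Deviations were taken from the mean of each time and cancel within it, so these negative values largely follow from the positive ones. Why the replicate 3 libraries deviated together was not tested. With a replicate block 14 genes were higher and 0 lower at 1h, 24 and 4 at 12h, and 39 and 36 at 48h. The block ended the call of H2-Eb1 at 48h (1.19).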
